A study of Mus musculus with 2 samples.

Results

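The collagens and laminins are the structural proteins of the extracellular matrix whose genes are described here, in total RNA from mouse hippocampus. They were taken by symbol, as every gene named Col with a chain number or Lama, Lamb or Lamc with a chain number that has at least 1 transcript typed as protein-coding. The rule gave 55 genes, 44 collagens and 11 laminins, of 22028 protein-coding genes and 55536 annotated genes in all. It used no measured value.

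The tissue came from the hippocampus of female B6CASTF1/J mice at an age of 2 months. These animals are first-generation hybrids of the laboratory strain C57BL/6J and the wild-derived strain CAST/EiJ, and no treatment or engineered allele is given. There were 2 libraries, replicate 1 and replicate 2, each from 300 ng of RNA with ERCC spike-in RNAs added, with no second condition to set them against. They are labelled as biological replicates from separate tissue records that name the same donor record. Separate animals are thus not certain, and part of the spread may be technical.

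A collagen chain carries stretches in which glycine fills every 3rd position, and such chains wind in threes around each other into a triple helix. Fibrillar collagens assemble into cables, collagen IV into the sheet of the basement membrane, fibril-associated collagens sit on the cables, and transmembrane collagens are anchored in the cell surface. A laminin is a cross-shaped trimer of 1 alpha, 1 beta and 1 gamma chain, and laminin sheets are the other main layer of basement membranes, which in brain line blood vessels and the surface under the meninges.

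The glycine stretches can be read in the coding sequences themselves. They are shown for 4 members that the results below turn on, as exons from the M21 annotation's transcripts, 5′ to 3′ on the coding strand, with the glycine codons in capitals. The exons, in mm10 coordinates, are exon 9 of Col25a1 at chr3:130476369-130476476 on the + strand, exon 7 of Col4a2 at chr8:11401148-11401264 on the + strand, exon 21 of Col1a1 at chr11:94942795-94942902 on the + strand and exon 25 of Col6a1 at chr10:76714114-76714176 on the - strand.
Col25a1: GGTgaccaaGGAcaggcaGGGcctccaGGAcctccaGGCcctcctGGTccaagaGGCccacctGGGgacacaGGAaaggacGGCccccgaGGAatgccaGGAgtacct
Col4a2: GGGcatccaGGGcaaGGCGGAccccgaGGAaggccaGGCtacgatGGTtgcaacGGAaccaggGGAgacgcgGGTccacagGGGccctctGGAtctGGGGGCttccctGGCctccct
Col1a1: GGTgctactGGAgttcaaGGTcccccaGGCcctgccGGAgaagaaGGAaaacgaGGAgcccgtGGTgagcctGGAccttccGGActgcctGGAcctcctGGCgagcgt
Col6a1: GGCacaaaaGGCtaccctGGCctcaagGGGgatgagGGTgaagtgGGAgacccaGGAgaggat
The Col25a1 and Col1a1 exons are 108 bases long and hold 12 glycine codons at an even spacing of 3 codons, and the 63 bases of the Col6a1 exon hold 7. The Col4a2 exon, with 15 glycine codons in 117 bases, keeps that spacing throughout and holds 2 further glycine codons between, each next to a glycine of the repeat.

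Across the longest annotated coding sequence of each member, all 44 collagens and 0 of 11 laminins held a run of at least 5 such triplets. The longest run was of 216 triplets or more in the fibrillar collagens and of 113 or fewer in the other collagens, where the ranges of collagen IV, collagen VI and the transmembrane collagens overlapped. In the 11 fibrillar collagens it spanned 216 to 344 triplets, with a median of 338, and the shortest were those of Col24a1 (216) and Col27a1 (217). The 6 collagen IV chains had longest runs of 39 to 66 triplets, and Col4a1 and Col4a2 held 22 and 24 separate runs. Col6a1 and Col6a2 each had a run of 87 triplets, and Col25a1 had 6 runs, the longest of 40 triplets.

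The exons inside these runs also differed by family. In the fibrillar collagens 302 of 510 exons (59.2%) were exactly 54 bases long, which is 6 triplets, and 508 of 510 were a multiple of 9 bases. In the fibril-associated collagens 106 of 193 exons (54.9%) had 54 bases, whereas 12 of 129 (9.30%) had this length in collagen IV and 10 of 87 (11.5%) in the transmembrane collagens. These counts describe the annotation, not the libraries, and were not tested.

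**Figure D1:**
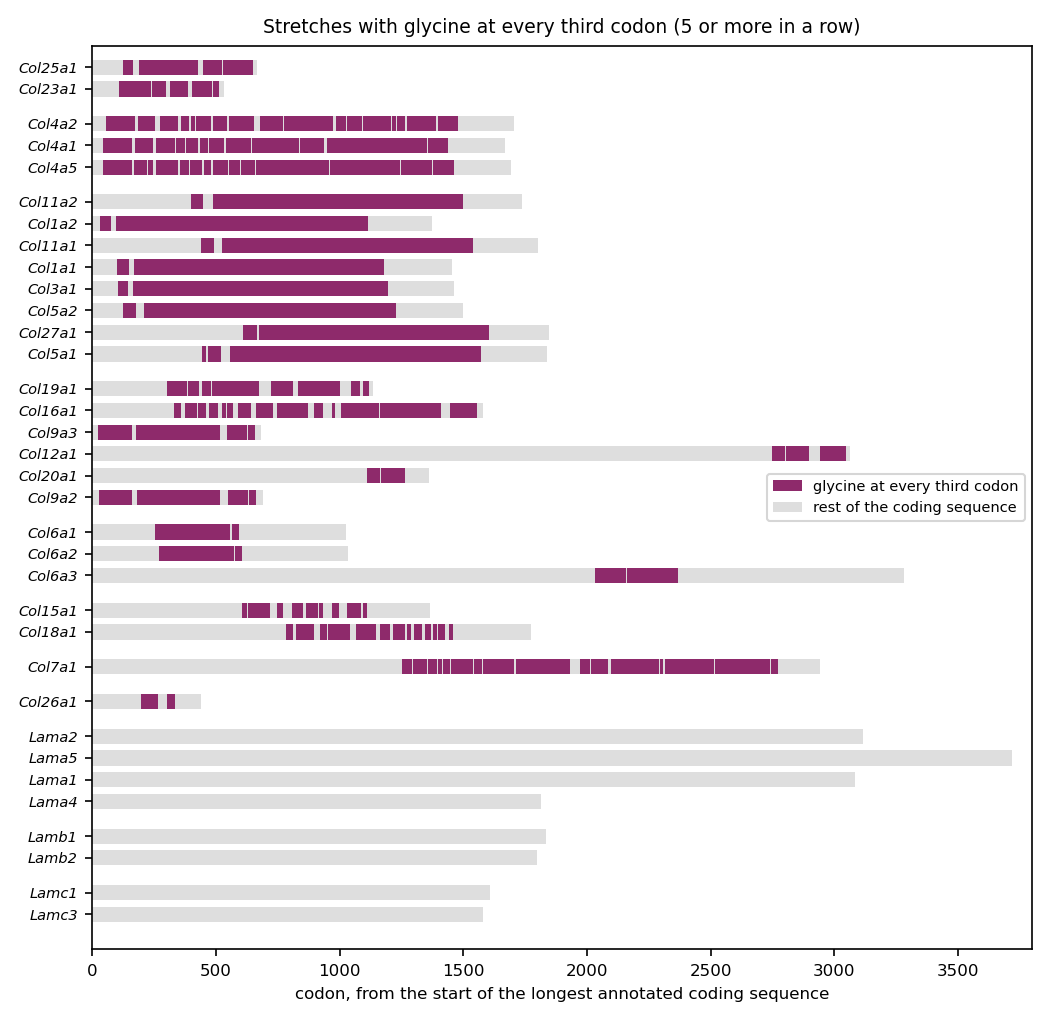
Glycine stretches along the coding sequences of the 34 detected collagen and laminin genes. Each bar runs from the start to the end of the longest annotated coding sequence (horizontal axis, in codons), with runs of at least 5 triplets that start with glycine in purple. Fibrillar collagens such as Col1a1 have a main run of 338 triplets, collagen IV chains have many short runs, and laminins have none.

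The depth was 29490900 expected counts on annotated genes in replicate 1 and 30691917 in replicate 2. The spread between the libraries, as a coefficient of variation from edgeR's common dispersion over 17782 genes, was 4.86%. Levels are given in TPM (counts per transcript length, scaled to a fixed total in each library), and the authors' tables add an interval of TPM per gene. Neuron markers (Snap25, Slc17a7 and Syt1 highest, 5 of 5 detected) summed to 2058 TPM in replicate 1 and 1991 TPM in replicate 2, which is the neural signal the label names, and markers of vessel and meningeal cells were present too and are given with the differences between libraries.

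The genes of the matrix were present at low to moderate levels. Of the 55 members, 34 (61.8%) were detected, meaning 1 TPM or more in both libraries, beside 58.0% of all protein-coding genes and 26.8% of all annotated genes. They comprised 26 of 44 collagens and 8 of 11 laminins. The median level was 1.70 TPM over all members, beside 3.26 TPM over all protein-coding genes, and 3.23 TPM over detected members, beside 14.6 TPM over detected protein-coding genes. Only 7 members reached a mean of 10 TPM, 22 lay between 1 and 5 TPM, and 20 lay below 1 TPM. The members together held 0.0224% of TPM in replicate 1 and 0.0220% in replicate 2, and the 4 highest of them, Col25a1, Col4a2, Col4a1 and Lamb1, held 41.1% of that.

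The 44 collagens summed to 166 TPM in replicate 1 and 163 TPM in replicate 2 (165 ± 1.99, SD, n = 2). The 11 laminins summed to 57.6 TPM and 57.1 TPM in replicates 1 and 2 (57.4 ± 0.361, SD, n = 2). Collagen IV was the largest collagen family by summed TPM, with 44.4 TPM in replicate 1 and 44.7 TPM in replicate 2. It was followed by the fibrillar collagens with 35.4 and 37.7 TPM, the transmembrane collagens with 33.2 and 33.6 TPM, and the fibril-associated collagens with 25.2 and 26.5 TPM, replicate 1 first. The order of the fibrillar and transmembrane collagens was not settled. In a second quantification of the same reads they had 54.3 and 56.4 TPM in replicate 1, against 63.7 and 56.0 TPM in replicate 2. Because tissue pieces were sequenced whole, fewer cells of a type and less RNA per cell cannot be told apart in any of these values.

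**Figure D2:**
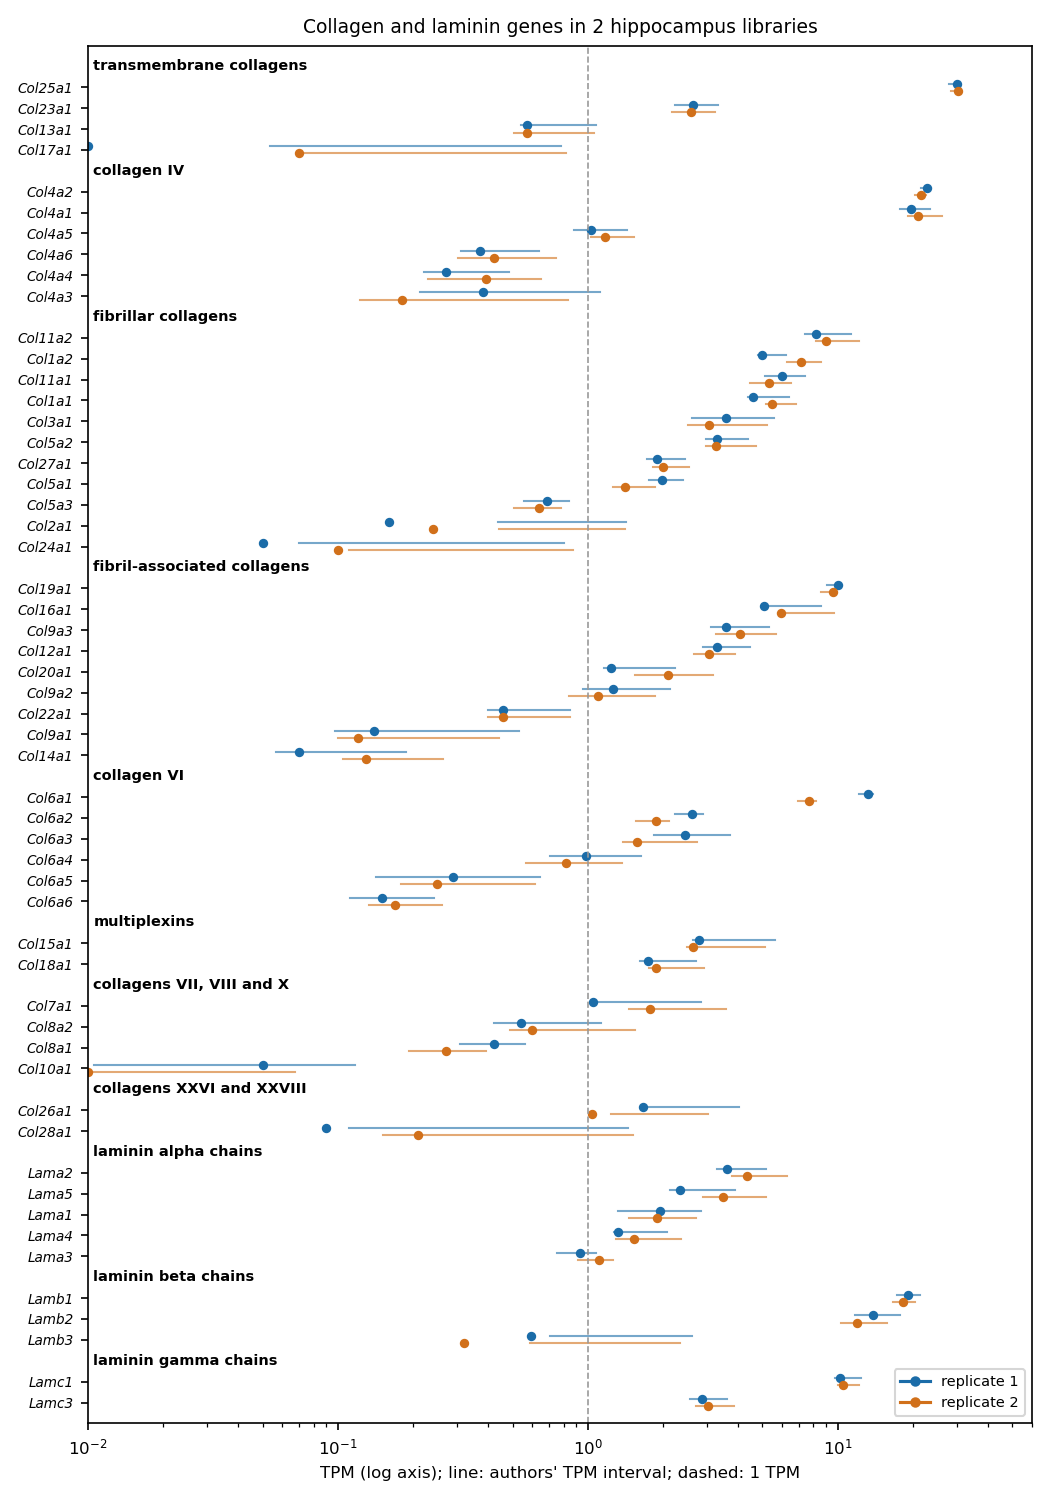
Levels of the collagen and laminin genes reported here in replicate 1 (blue) and replicate 2 (orange), as TPM on a log axis, grouped by family and ordered by mean. Horizontal lines are the authors' TPM intervals and the dashed line marks 1 TPM. Col25a1 leads at 29.95 and 30.39 TPM, and at Col6a1, with 13.3 against 7.65 TPM in replicates 1 and 2, the intervals of the replicates do not overlap. Col6a1 is not alone in this, since the intervals at Col6a2 and Col1a2 do not overlap either.

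The highest member by the TPM of the whole gene was Col25a1 (ENSMUSG00000058897.17), a transmembrane collagen made by neurons whose shed ectodomain was first described in human amyloid plaques. Its gene lies on chromosome 3, 130131501 to 130599877, + strand, in mm10. It had 29.95 TPM in replicate 1 and 30.39 TPM in replicate 2, from 3054 and 3208 expected counts, and 84.6% of protein-coding genes had a lower mean. Its intervals, 27.9 to 30.4 TPM in replicate 1 and 28.5 to 30.9 TPM in replicate 2, did not meet those of the next member, Col4a2, in either library. This rank counts all transcripts of a gene. Protein-coding transcripts held 59.5% and 57.8% of the TPM of Col25a1 in replicates 1 and 2, against 100% and 98.8% for Col4a2. By protein-coding transcripts alone Col4a2 stood above Col25a1 in both libraries. Over the other 33 pairs of neighbours in the order of the 35 members at a mean of 1 TPM or more, the intervals overlapped in at least 1 library, so the order below the top is not resolved step by step.

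The other transmembrane collagens were far lower. Col23a1 had 2.64 TPM in replicate 1 and 2.60 TPM in replicate 2, which put it 3.53 ± 0.03 below Col25a1 on the log2 scale of TPM (SD, n = 2), with intervals apart in both libraries. Col13a1, a collagen of the neuromuscular junction, had 36 and 34 counts in replicates 1 and 2. Col17a1, which anchors skin cells to their basement membrane, had 1 and 2 counts and was at the edge of detection.

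Col4a1 and Col4a2, whose products join as 2 alpha1 chains and 1 alpha2 chain in nearly every basement membrane, were next. Col4a2 had 22.7 TPM in replicate 1 and 21.6 TPM in replicate 2, and Col4a1 had 19.6 and 20.9 TPM. By the TPM of the whole gene they were not apart. The log2 ratio of Col4a2 over Col4a1 was 0.13 ± 0.12 (SD, n = 2), and their intervals overlapped in both libraries. The sign turned in the second quantification, a further table of the same reads, at -0.10. Protein-coding transcripts held 75.2% and 72.0% of the TPM of Col4a1 in replicates 1 and 2, against 100% and 98.8% for Col4a2. By protein-coding transcripts alone Col4a2 stood above Col4a1 in both libraries, also in the second quantification. The 4 other chains were much lower. Col4a5, a chain of kidney and other specialised membranes, had 1.03 TPM in replicate 1 and 1.17 TPM in replicate 2, and Col4a6, its partner, was 1.48 lower on the log2 scale in both libraries, with intervals apart. Col4a3 and Col4a4, the partners of Col4a5 in the filter of the kidney, had means of 0.280 and 0.330 TPM. Which of these last 2 was higher differed between the libraries.

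The 6 collagen IV genes stand in 3 pairs that face away from each other. The annotated starts are 21 bases apart for Col4a1 and Col4a2, 72 bases apart for Col4a3 and Col4a4, and 1309 bases apart for Col4a5 and Col4a6. For Col4a1 and Col4a2, the pair detected throughout, the promoter windows of RefSeq (GRCm38.p6, 250 bases before to 50 after the start) are printed because the 2 windows share 78 bases. Capitals mark CCAAT and GGGCGG in either orientation (also ATTGG and CCGCCC), the motifs do not overlap, and no TATAAA was in either window. The Col4a2 window is chr8:11312555-11312854 on the + strand and the Col4a1 window is chr8:11312777-11313076 on the - strand.
Col4a2: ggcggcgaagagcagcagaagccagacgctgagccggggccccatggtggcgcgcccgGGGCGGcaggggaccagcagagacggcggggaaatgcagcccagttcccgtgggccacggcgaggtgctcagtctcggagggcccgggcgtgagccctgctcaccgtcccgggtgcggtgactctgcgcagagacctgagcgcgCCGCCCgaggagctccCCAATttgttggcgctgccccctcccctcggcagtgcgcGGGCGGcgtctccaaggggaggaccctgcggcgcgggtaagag
Col4a1: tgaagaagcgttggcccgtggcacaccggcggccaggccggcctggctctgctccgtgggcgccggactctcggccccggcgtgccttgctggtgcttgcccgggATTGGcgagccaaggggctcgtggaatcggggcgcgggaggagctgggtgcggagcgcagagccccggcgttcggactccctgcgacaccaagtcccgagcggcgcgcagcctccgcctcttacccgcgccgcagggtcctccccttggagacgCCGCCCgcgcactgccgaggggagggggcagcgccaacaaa
The Col4a2 window held 1 CCAAT and 3 GGGCGG, and the Col4a1 window 1 of each. RefSeq promoters were matched for 40 of the 55 members. With 1 window taken for each gene, the first listed, CCAAT stood in 13 of the 40, GGGCGG in 25 and TATAAA in 5, beside 37.9%, 35.9% and 14.2% of the 27025 genes with a window of this length. A match is a stretch of letters and does not show that a factor binds there.

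The fibrillar collagens were led by Col11a2, a chain best known from cartilage, with 8.16 TPM in replicate 1 and 9.02 TPM in replicate 2. Its lead over Col1a2 was not settled, since their intervals overlapped in replicate 2. In the second quantification Col1a2 had a mean of 12.1 TPM and Col11a2 one of 11.7 TPM. There Col1a2 was the higher in replicate 2 and Col11a2 in replicate 1. Col1a2 and Col1a1, which together form the main collagen of skin, bone and meninges, had 5.0 and 4.57 TPM in replicate 1 against 7.16 and 5.45 TPM in replicate 2. Col11a1, the partner of Col11a2, had 6.00 TPM in replicate 1 and 5.33 TPM in replicate 2. So a cartilage-type pair stood beside the collagen I pair, while Col2a1, the major fibril chain of cartilage, had 17 counts in each library and a mean of 0.200 TPM.

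Below these, Col3a1, a chain of vessel walls and soft tissue, had 3.57 TPM in replicate 1 and 3.07 TPM in replicate 2. Col5a2 and Col5a1, chains that start collagen I fibrils, had 3.30 and 1.98 TPM in replicate 1 and 3.27 and 1.41 TPM in replicate 2. Col27a1 had 1.89 and 2.00 TPM in replicates 1 and 2. Within a library Col5a2 was above Col5a1 by 0.98 ± 0.34 and Col11a2 above Col11a1 by 0.60 ± 0.22 on the log2 scale of TPM (SD, n = 2), both with intervals apart in both libraries. For Col11a2 and Col11a1 they nearly touched in replicate 1, where that of Col11a1 ended at 7.41 TPM and that of Col11a2 began at 7.42 TPM. Col1a2 over Col1a1, at 0.26 ± 0.19, had overlapping intervals in at least 1 library. Col5a3 and Col24a1 stayed below 1 TPM.

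Col19a1 led the fibril-associated collagens. In mouse hippocampus it is known as a product of interneurons that acts in the formation of inhibitory synapses. Its level was 10.1 TPM in replicate 1 and 9.57 TPM in replicate 2. Col16a1 had 5.09 TPM in replicate 1 and 5.95 TPM in replicate 2, and Col12a1, a chain of dense connective tissue, 3.28 and 3.05 TPM. Col20a1 was low, with 1.24 TPM in replicate 1 and 2.09 TPM in replicate 2.

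Collagen IX, which coats cartilage fibrils, is built from the chains of Col9a1, Col9a2 and Col9a3, and the 3 genes were very unequal. Col9a3 had 3.57 TPM in replicate 1 and 4.07 TPM in replicate 2, Col9a2 had 1.26 and 1.10 TPM, and Col9a1 had 6 and 8 counts, or a mean of 0.130 TPM. On the log2 scale of TPM Col9a3 was 4.88 ± 0.29 above Col9a1 and Col9a2 was 3.18 ± 0.02 above it (SD, n = 2), with intervals apart in both libraries. Col9a3 shares 6.07% of its exonic bases with Tcfl5 on the opposite strand, and no source used here says whether the counting used strand. Col22a1 and Col14a1 had means of 0.460 and 0.100 TPM.

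Collagen VI forms beaded microfilaments from alpha1, alpha2 and alpha3 chains, the products of Col6a1, Col6a2 and Col6a3. Their levels were far from equal. Col6a1 had 13.3 TPM in replicate 1 and 7.65 TPM in replicate 2, Col6a2 had 2.62 and 1.87 TPM, and Col6a3 had 2.44 and 1.58 TPM. Within a library Col6a2 was 2.19 ± 0.22 and Col6a3 2.36 ± 0.12 below Col6a1 on the log2 scale (SD, n = 2), which corresponds to a 4.55-fold and a 5.13-fold excess of Col6a1, with intervals apart in both libraries. Col6a1 and Col6a2 are neighbours on chromosome 10, 85162 bases apart, on the same strand. Col6a4, Col6a5 and Col6a6, the genes of chains that can replace alpha3, lay at means of 0.900, 0.270 and 0.160 TPM.

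Among the remaining collagens, Col15a1 and Col18a1, the multiplexins of vessel basement membranes, of which Col18a1 gives rise to endostatin, had 2.80 and 1.74 TPM in replicate 1 and 2.65 and 1.87 TPM in replicate 2. Their order was not settled, since the log2 ratio of Col18a1 over Col15a1 was -0.59 ± 0.13 with overlapping intervals (SD, n = 2) and 0.39 in the second quantification. Col7a1, the anchoring fibril of skin, had 1.05 TPM in replicate 1 and 1.78 TPM in replicate 2. Col26a1 had 1.66 and 1.04 TPM in replicates 1 and 2, from 52 and 45 counts. Col8a1, Col8a2 and Col28a1 were under 1 TPM, and Col10a1, the chain of growth plate cartilage, had 3 and 1 counts.

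The laminin chains were unequal by type. Beta chains summed to 33.6 TPM in replicate 1 and 30.6 TPM in replicate 2, gamma chains to 13.95 and 14.2 TPM, and alpha chains to 10.1 and 12.4 TPM, so that alpha, of which each trimer needs 1, had the lowest sum in both libraries. Lamb1 led with 19.1 TPM in replicate 1 and 18.3 TPM in replicate 2. Lamb2, the beta chain also found at neuromuscular synapses, followed with 13.9 and 11.99 TPM. The log2 ratio of Lamb2 over Lamb1 was -0.53 ± 0.11 (SD, n = 2), with intervals that overlapped in at least 1 library, and -1.40 in the second quantification.

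Lamc1, the gamma chain of most laminins, had 10.3 TPM in replicate 1 and 10.6 TPM in replicate 2, which was 0.84 ± 0.07 below Lamb1 on the log2 scale (SD, n = 2), with intervals apart in both libraries. Lamc3 had 2.86 and 3.03 TPM in replicates 1 and 2, and was 1.82 ± 0.03 below Lamc1. It shares 6.27% of its exonic bases with Gm13441 on the opposite strand, the largest such share among the members. In all, 16 members share some exonic bases with other genes.

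Among the alpha chains the highest was Lama2, the chain lost in a congenital muscular dystrophy and carried by astrocyte and mural cell membranes in brain. It had 3.60 TPM in replicate 1 and 4.34 TPM in replicate 2, 1.04 ± 0.22 above Lama1 on the log2 scale, with intervals apart in both libraries. Lama5 and Lama4, the chains of endothelial membranes, had 2.33 and 1.32 TPM in replicate 1 against 3.47 and 1.53 TPM in replicate 2. Lama1, a chain of early embryos and of the pia, had 1.95 and 1.90 TPM in replicates 1 and 2. Lama3 and Lamb3, chains of a laminin of skin, were not detected. Lama3 had 0.930 and 1.11 TPM in replicates 1 and 2, the only member at a mean of 1 TPM or more that was not detected, and Lamb3 had a mean of 0.455 TPM.

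No member had 0 counts in both libraries. The 20 members below a mean of 1 TPM had between 1 and 90 counts in a library, and 15 of them were below 0.5 TPM.

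The libraries were set against each other as the log2 ratio of counts of replicate 1 over replicate 2, with an exact binomial 95% interval that covers counting error only. With 1 library on each side there is no test between animals. A mean of at least 1 CPM (a count after division by library size) was reached by 47 of the 55 members. None of the 47 had a ratio of 1 or more in size, beside 0.516% of all 15509 genes tested. At a size of 0.5 or more there were 3, Col6a1, Col6a4 and Col8a1 (6.38%), beside 4.04% of genes. The median size of the ratio was 0.13 in members, 0.08 in all tested genes and 0.09 in tested genes of about the members' range of CPM. Levels within that range were not matched to those of the members. The signed median of the ratio was 0.04 in members and 0.01 in all.

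The interval excluded 0 for 10 of the 47 members (21.3%), beside 18.8% of all tested genes. It lay above 0, meaning more in replicate 1, for 5 members, beside 10.5% of genes, and below 0 for 5, beside 8.27%. The share of members was near that of all genes.

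Col6a1 differed most among them. It had 1145 counts in replicate 1 and 692 in replicate 2, a log2 ratio of 0.79 (0.65 to 0.93). Its partner Col6a2 had 224 counts in replicate 1 and 166 in replicate 2, at 0.49 (0.20 to 0.79), whereas the third chain, Col6a3, had 234 and 245 counts and an interval of -0.27 to 0.26. Col5a1 was also higher in replicate 1, with 357 counts against 265 in replicate 2, at 0.49 (0.26 to 0.73). The differences of Col4a1 and Col4a2 in the same direction were small, at 0.11 (0.02 to 0.19) and 0.09 (0.02 to 0.16).

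The collagen I pair was higher in replicate 2. Col1a2 had 544 counts in replicate 1 and 713 in replicate 2, a log2 ratio of -0.33 (-0.49 to -0.16), and Col1a1 had 579 and 718, at -0.25 (-0.41 to -0.09). Also higher in replicate 2 were Lama3 at -0.31 (-0.61 to -0.02), Col11a2 at -0.15 (-0.28 to -0.01) and Lamc1 at -0.14 (-0.24 to -0.04).

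**Figure D3:**
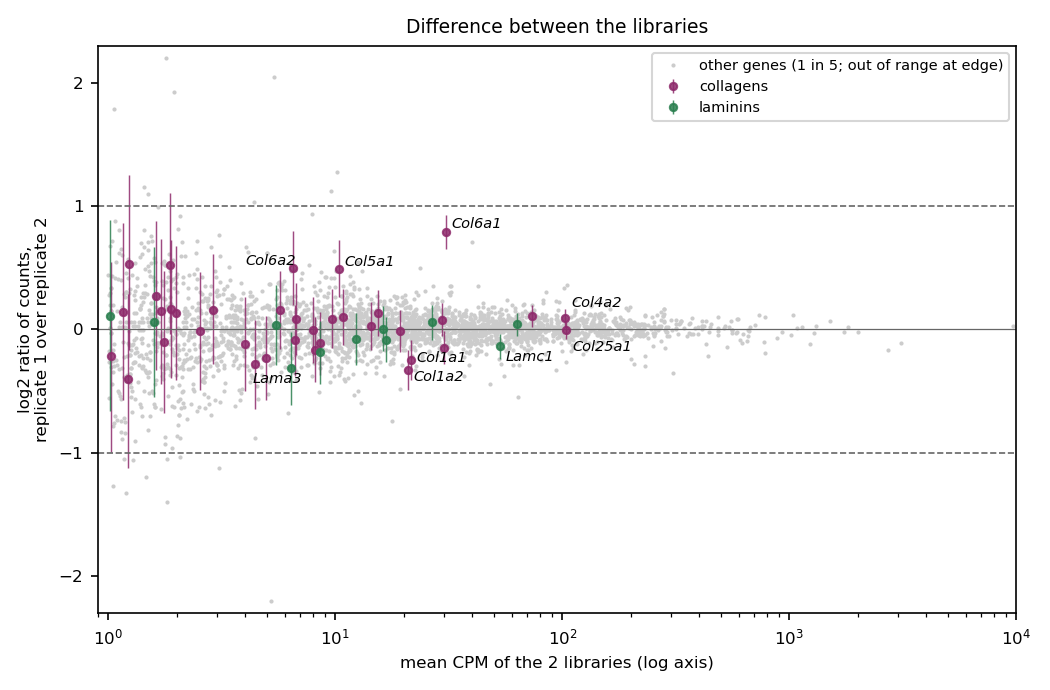
Log2 ratio of counts, replicate 1 over replicate 2, against mean CPM on a log axis for 36 collagens (purple) and 11 laminins (green), with exact 95% intervals for counting error, over a sample of other genes (grey, those outside the axis range drawn at its edge). Dashed lines mark a ratio of 1 in size. Col6a1 stands out at 0.79, and Col1a1 and Col1a2 lie below 0.

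Markers of other cell types were read in the same libraries. Fibroblast markers (Igf2, Dcn and Slc6a13 highest; 8 of 8 detected) summed to 68.8 TPM in replicate 1 and 61.4 TPM in replicate 2, and within the list Dcn and Slc6a13 were higher in replicate 1 and Ogn in replicate 2 beyond counting error, with a median log2 ratio of -0.04. The choroid plexus list (3 of 8 detected) summed to 131 TPM in replicate 1 and 74.7 TPM in replicate 2, nearly all of it Ttr, with 121 and 65.7 TPM. Kl and Sostdc1 had 4.51 and 2.03 TPM in replicate 1 against 4.09 and 2.00 TPM in replicate 2. The log2 ratios of the 4 tested genes of this list lay between 0.02 and 0.88. Only Ttr, at 0.88 (0.80 to 0.97), was beyond counting error among these 4. Blood genes (Hbb-bs, Hba-a1 and Hba-a2, 3 of 3 detected) summed to 327 TPM in replicate 1 and 581 TPM in replicate 2. The part of these markers in the ratios of the collagens was not tested.

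Endothelial markers (Ly6c1, Cldn5 and Flt1 highest; 7 of 7 detected) summed to 85.8 TPM in replicate 1 and 86.0 TPM in replicate 2. Within the list Cldn5, at a log2 ratio of 0.39 (0.21 to 0.56), and Flt1, at 0.17, were higher in replicate 1 beyond counting error and Ly6c1, at -0.22, in replicate 2. Mural markers (Vtn, Rgs5 and Acta2 highest; 7 of 8 detected) summed to 68.03 TPM in replicate 1 and 66.4 TPM in replicate 2, with 1 of 8, Rgs5, higher in replicate 1. Ependymal markers (Rarres2, Foxj1 and Ccdc153 highest; 3 of 4 detected) summed to 9.43 TPM in replicate 1 and 11.02 TPM in replicate 2, and thalamus markers (Prkcd, Rora and Tcf7l2 highest; 4 of 4 detected) to 34.6 and 39.6 TPM. In the thalamus list 1 of 4, Prkcd, with 589 counts in replicate 1 and 856 in replicate 2, was higher in replicate 2, at -0.48 (-0.63 to -0.32). Granule cell markers (Calb1, Prox1 and Stxbp6 highest; 5 of 5 detected) summed to 166 TPM in replicate 1 and 191 TPM in replicate 2, with 4 of 5 higher in replicate 2 beyond counting error, and astrocyte markers (Slc1a2, Aldoc and Gfap highest; 5 of 5 detected) to 1262 and 1320 TPM, with 1 higher in replicate 1 and 4 in replicate 2. The interneuron list (Sst, Gad1 and Gad2 highest; 6 of 6 detected) summed to 393 and 373 TPM, oligodendrocyte precursor markers (Tnr, Olig1 and Pdgfra highest; 5 of 5 detected) to 127 and 136 TPM, and microglia markers (Csf1r, C1qb and P2ry12 highest; 4 of 4 detected) to 79.9 and 74.3 TPM, replicate 1 first. Beyond counting error, Sst and Gad2 were higher in replicate 1, Tnr in replicate 2 and 0 of 4 microglia markers in either. Of the neuron markers above, Snap25, Slc17a7 and Syt1 were higher in replicate 1. Beside all these marker lists stand the shares over all tested genes, 10.5% higher in replicate 1 and 8.27% in replicate 2 beyond counting error. Where counts are high, small ratios pass this bound. The log2 ratios lay between -0.21 and 0.05 in the astrocyte list and between -0.03 and 0.07 in the neuron list. In the granule cell list they lay between -0.38 and 0.07. No tested marker had a ratio of 1 or more in size.

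TPM divides counts by a length estimated in each library from its mix of transcripts, and for some members that length varied. Of the 35 members at a mean of 1 TPM or more, 8 (22.9%) had effective lengths that differed by 0.25 or more on the log2 scale, beside 5.42% of 15422 genes. A TPM ratio of 0.5 or more in size was found in 7 (20.0%), beside 6.83% of genes, and a ratio of 1 in 0, beside 1.59%. The genes set beside the members were of all types and were not matched for level or number of transcripts. These shares are thus not read as a trait of the members. The 7 were Col7a1, Col20a1, Lama5, Col1a2, Col6a3, Col26a1 and Col6a1. Of these, 5 had the length difference and 1, Col6a1, had a count ratio of 0.5 or more.

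Lama5 shows how the measures part. It had 480 counts in replicate 1 and 499 in replicate 2, a log2 count ratio of 0.01, while its effective length was 9474 bases in replicate 1 and 6354 bases in replicate 2, and its log2 TPM ratio was -0.57. For Col6a3 the effective length was 4426 bases in replicate 1 and 6845 bases in replicate 2, and the log2 TPM ratio 0.63 stood beside a count ratio of 0.00. Col6a1 behaved otherwise, since its effective lengths, 3971 and 4001 bases in replicates 1 and 2, were close, with a log2 ratio of 0.79 in counts and 0.80 in TPM. The TPM differences of Lama5, Col6a3, Col7a1, Col20a1 and Col26a1 were thus accompanied by count intervals that included 0.

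**Figure D4:**
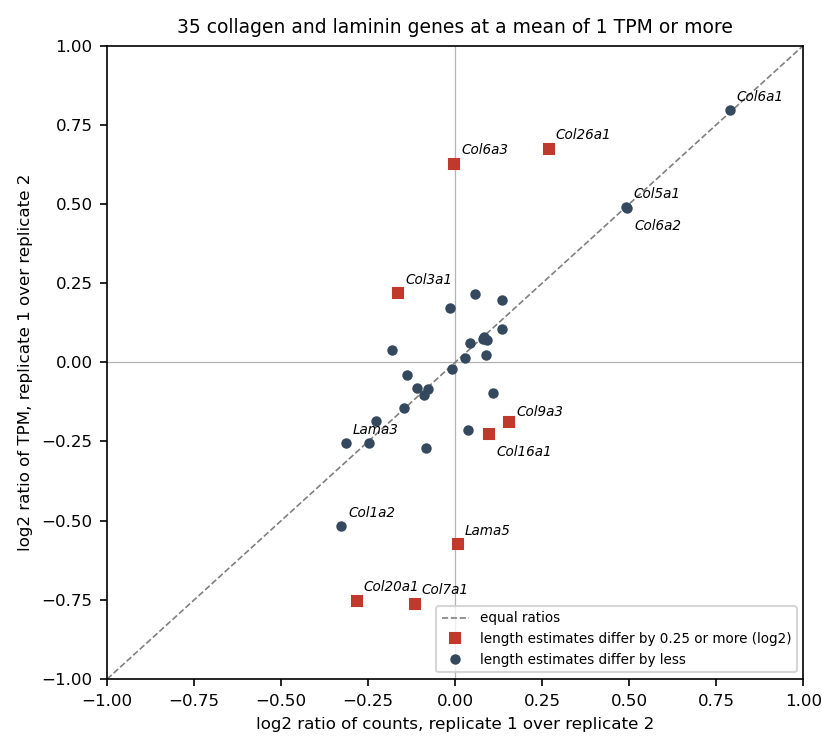
Log2 TPM ratio against log2 count ratio, both replicate 1 over replicate 2, for the 35 collagen and laminin genes at a mean of 1 TPM or more. Red squares are the 8 genes whose effective lengths differ by 0.25 or more on the log2 scale, and the dashed line marks equal ratios. Col6a1 lies on the line at 0.79, and Lama5 (0.01 in counts, -0.57 in TPM) lies far from it.

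The transcript tables hold the mix of transcripts behind these lengths. For each of the 34 detected members the leading transcript is the one with the highest mean share of the gene's TPM. It led in both libraries for 32 members (94.1%), beside 88.8% of 11578 detected protein-coding genes with more than 1 transcript, and the 2 others were Col4a5 and Col7a1. The second quantification gave the same leader for 32 (94.1%), beside 75.0% of genes, the exceptions being Col9a3 and Col26a1. All 34 leaders were typed protein-coding. The same share over all detected protein-coding genes is not given here, so this count is not read as a trait of the members. The median share of a gene's TPM on protein-coding transcripts was 80.8% in members and 84.7% in all detected protein-coding genes, and 82.9% and 81.7% in the second quantification.

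In the first quantification some genes were nearly 1 transcript each. Col1a1-201 and Col5a1-201 held 100% of their genes' TPM in both libraries, Col6a1-201 held 99.5% ± 0.639 and Col4a2-201 99.4% ± 0.850 (SD, n = 2). Lamc3-201 followed with 94.1%, and Lamc1-201 with 91.3% ± 4.99. The second quantification gave means of 100% for Col1a1-201 and 99.5% for Col6a1-201. The others were at 92.2% for Col4a2-201, 90.5% for Lamc1-201, 83.1% for Col5a1-201 and 78.6% for Lamc3-201.

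Others were split. Col25a1 had 6 annotated transcripts: Col25a1-202 held 42.7% in replicate 1 and 41.3% in replicate 2, Col25a1-204, a transcript typed as a target of nonsense-mediated decay, held 36.7% and 38.2%, and Col25a1-201, the source of the exon printed above, held 16.8% and 16.5%. The second quantification gave means of 39.6%, 37.0% and 18.6% for the 3, so the split was alike in both libraries and both tables. Col4a1-201 held 57.9% of Col4a1 in replicate 1 and 46.6% in replicate 2, with Col4a1-208, also typed for decay, at 22.2% and 22.1%. Col19a1 was split between Col19a1-201, with 50.8% and 53.5%, and the non-coding Col19a1-203, with 34.8% and 36.4% in replicates 1 and 2. By counts, which favour long transcripts, the second of these was ahead.

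The genes with unequal lengths had unequal shares. Lama5-201 held 83.3% of Lama5 in replicate 1 and 53.7% in replicate 2, where the short non-coding Lama5-203, of 734 bases, held 37.4% from 18.6 counts, against 6.01% from 1.93 counts in replicate 1. Col20a1-201 held 100% in replicate 1 and 43.5% in replicate 2. For Col6a3, Col6a3-202 held 40.8% in replicate 1 and 70.9% in replicate 2. In Lama5, few counts on a short transcript thus carried a large part of the gene's TPM in replicate 2. Lengths and counts of the other transcripts of Col20a1 and Col6a3 are not given here. For Col9a3 the tables disagreed outright, since Col9a3-201 held 55.9% in the first and 0.00% in the second, where Col9a3-203 held 64.7%.

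**Figure D5:**
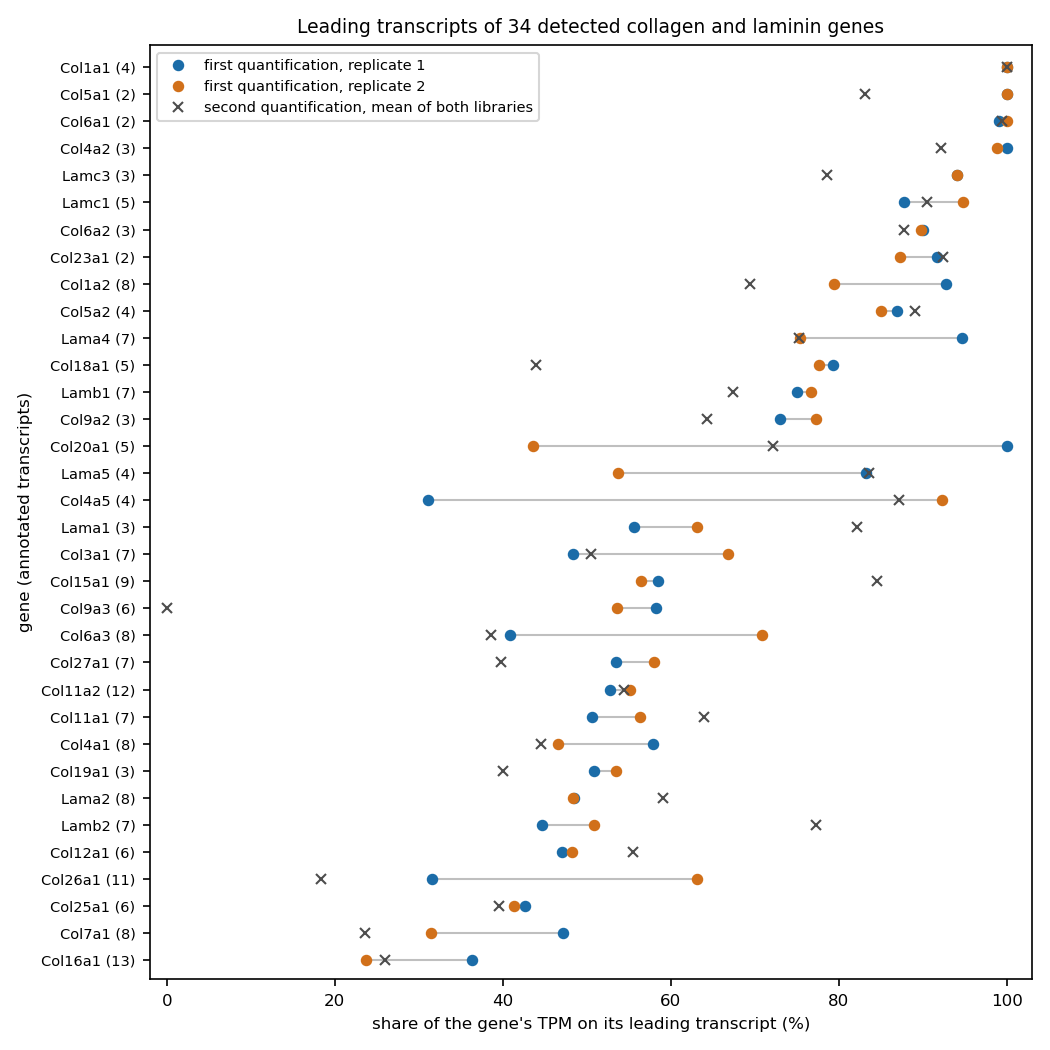
Share of each gene's TPM on its leading transcript for the 34 detected collagen and laminin genes, with the number of annotated transcripts in brackets. Blue and orange points are replicates 1 and 2, and crosses are the mean of the second quantification. The points of Col1a1, Col5a1, Col6a1 and Col4a2 lie near 100%, those of Col25a1 near 42.0%, and those of Col20a1, Lama5 and Col4a5 differ widely between the libraries. The cross of Col5a1 lies lower, at 83.1%.

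The enzymes and partners of these proteins were also measured, and none of their lists held a tested gene with a ratio of 1 or more in size. All 18 genes of collagen synthesis (hydroxylases, chaperones and secretion) were detected. Mia3, which helps load collagen for export, had 77.7 TPM in replicate 1 and 87.6 TPM in replicate 2, the proline isomerase Ppib had 78.9 and 76.3 TPM, and P4hb, a subunit of the prolyl 4-hydroxylase, had 42.4 and 45.9 TPM. Each of these stood above every collagen. Crtap and P3h3, parts of prolyl 3-hydroxylation complexes, were higher in replicate 1 beyond counting error, and 0 of the 18 was higher in replicate 2. Over all tested genes these shares were 10.5% and 8.27%, which also stand beside the counts of the lists that follow.

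Of 13 genes that trim or cross-link collagen, 7 were detected, led by the procollagen proteases Bmp1 (21.8 TPM in replicate 1 and 22.6 TPM in replicate 2), Adamts3 (10.8 and 10.6 TPM) and Adamts2 (5.81 and 5.66 TPM). Loxl3 and Adamts14 were higher in replicate 1 and Tll1 in replicate 2 beyond counting error. Among basement membrane partners 8 of 9 were detected. Sparc, a collagen-binding protein of vessels and glia, had 119 TPM in replicate 1 and 107 TPM in replicate 2, the proteoglycan Agrn had 59.2 and 57.7 TPM, and Pxdn, which cross-links collagen IV, had 32.3 and 30.4 TPM. Sparc and Pxdn were higher in replicate 1 and Nid1, which bridges laminin and collagen IV, in replicate 2.

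Of 8 leucine-rich proteoglycans that bind fibrils 6 were detected. Dcn had 866 counts in replicate 1 and 610 in replicate 2, or 23.9 and 16.3 TPM, at a log2 ratio of 0.57 (0.42 to 0.72). Bgn (7.59 and 7.55 TPM) and Prelp (7.5 and 7.05 TPM) were close in replicates 1 and 2, and Ogn was higher in replicate 2.

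Receptors were detected for 14 of 16 genes. Dag1, the precursor of the laminin receptor dystroglycan, had 28.9 TPM in replicate 1 and 29.1 TPM in replicate 2, the collagen receptor kinase Ddr1 had 24.1 and 23.8 TPM, and the laminin-binding integrin chain Itga7 had 13.9 and 16.7 TPM. Itga6 and Itga3 were higher in replicate 1 and Itga7 in replicate 2 beyond counting error. Gp6, the collagen receptor of platelets, was at 0 counts throughout, and a count of 0 allows for up to 3. Of 11 matrix proteases and inhibitors 6 were detected, and the inhibitors led, with Timp2 at 83.2 TPM in replicate 1 and 65.7 TPM in replicate 2, Timp3 at 22.0 and 24.1 TPM and Timp4 at 9.31 and 7.56 TPM. Timp2 and Mmp14 were higher in replicate 1 and Timp3 in replicate 2. The collagenase Mmp8 and the stromelysin Mmp3 had 0 counts in both libraries, under the same limit.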

How the data were processed

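Total RNA-seq of 2 hippocampus libraries of 1 group was used. Per the file headers, the deposited gene and transcript tables give each feature's expected count and its TPM. The gene tables add a score, the bounds of the authors' interval of TPM, which follows the posterior mean rather than the TPM, so that 3 of the 35 members at a mean of 1 TPM have a TPM outside it in a library. A further deposited transcript table, called the second quantification, holds estimated counts and TPM, summed here per gene. Per the accompanying notes, the build is mm10 and the annotation M21. The aligner and quantifier are not given in the sources used here. The effect of CAST/EiJ alleles on assignment to the mm10 reference was not tested.

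The 26345 entries that name no annotated gene (0.378% and 0.368% of counts in replicates 1 and 2) stayed out of library sizes. Ratios of replicate 1 over replicate 2 took counts plus 0.5 and divided them by library sizes scaled with TMM (edgeR 4.0.16, limma 3.58.1, R 4.3.3; DESeq2 1.42.0 as an alternative), for genes at a mean of 1 CPM or more. Exact binomial (Clopper-Pearson) 95% intervals of the 2 counts, rounded, cover counting error only. Zero counts allow up to 3 counts. With 1 library against 1 library no p-value was computed. The ratio calls were tested on simulated data. Pairs of genes were called apart where the intervals of TPM did not overlap in either library.

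The members, gene lists, pairs and rules were chosen with earlier results of these data known. Named are all members at a mean of 1 TPM or more, those at 0 counts, and the 3 highest of each list with any gene at 0 counts. List genes named beyond counting error, and members below 1 TPM named as partners, were added after their values were seen. Values of 1 member are not reported here on their own. Sequences came from M21 transcripts and RefSeq promoters. Scripts ran in Python 3.11.15 with scipy 1.17.1, pandas 2.3.3 and numpy 2.4.6, and figures were drawn with matplotlib 3.10.9.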

Additional observations from a re-analysis of the deposited data

How the results depend on the processing

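A threshold of 2 TPM in both libraries left 22 members detected in place of 34. With a ratio of 0.5 in size as the call, 3 of 47 members were apart in place of 0, beside 4.04% of genes. With no minimum level 1 of 55 was, beside 20.2% of 27930 genes, namely Col10a1, which has 3 counts in replicate 1 and 1 in replicate 2. DESeq2 size factors, total counts, the second quantification, a prior count of 2, a minimum of 0.5 CPM and the ratio of TPM (chosen after seeing the data) also gave 0. The summed level of the collagens, 165 TPM, was 280 TPM in the second quantification, 179 TPM with the posterior mean and 408 TPM when rescaled over nuclear protein-coding genes, which hold 40.5% and 40.3% of TPM in replicates 1 and 2. For the laminins, 57.4 TPM, these were 84.7, 62.2 and 142 TPM. Leaving out each replicate gave 34 to 35 detected members, 163 to 166 TPM for the collagens and 57.1 to 57.6 TPM for the laminins. The level moved by more than 1 SD for 34 of 35 members in the second quantification and for 21 with the posterior mean, and 11 of 18 gene pair ratios moved in the second quantification. Signs of called pairs did not turn in these settings. The cause was not tested. No paired analysis was possible because there is only 1 group. Depth limits the members below 1 TPM, with at most 90 counts in a library.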
